A study of Mus musculus with 4 samples.

Results

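Merged peaks of accessible chromatin at the starts and ends of protein-coding genes were examined in sorted mouse brain macrophages. A merged peak was taken as a member when its centre lay within 1000 bp of the start or the end of a RefSeq protein-coding gene on chromosomes 1 to 19. This held for 15591 of the 74695 merged peaks, or of 72875 on those chromosomes. Of the 57284 other peaks there, 33437 had their centre inside a protein-coding gene and 23847 outside all of them. Accessibility was measured with Omni-ATAC, a form of ATAC-seq in which a transposase cuts open chromatin and leaves adapters at the cuts, in brain parenchymal macrophages isolated by cell sorting. There were 4 libraries, MDM1, MDM2, YSM1 and YSM2, which form 2 groups of 2. MDM stands for monocyte-derived macrophages in the title of the series. What YSM abbreviates is not written out in the labels. All 4 libraries carried the genotype Ms4a3-Ai9 and the treatment DR-3x, so neither separates the groups. Ms4a3 is active in progenitors of granulocytes and monocytes. Ai9 is a reporter allele that turns on a red fluorescent protein after Cre recombination. The labels give no age, and do not say what DR-3x is, which cells carried the reporter, or whether each library had an animal of its own.

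In mammals, the start of an active gene usually lies in a gap between nucleosomes, where transcription factors and RNA polymerase gain access to DNA. Many such starts lie in CpG islands, stretches rich in CG dinucleotides that are kept free of DNA methylation, and these are open in most cell types. Some genes lie head to head on opposite strands and share the stretch between their starts, called a bidirectional promoter, and many of them serve basic functions of every cell. In macrophages, factors such as PU.1 act largely at enhancers away from gene starts, which tend to be more specific to the cell type.

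The merged list gave each peak a position and a number of subpeaks, which is the number of library-level peaks that the authors had merged into it. Each library-level peak was 201 bp wide, so width grows with the number and the scatter of the calls. A peak of 3 subpeaks or fewer lacks a call from 1 or more of the 4 libraries. A peak of 4 can hold 1 call from each library, or several from the same one. No value per library was used here, so no spread between replicates could be measured and no test between the groups could be made. Shares are given with exact 95% Clopper-Pearson intervals, which cover counting error only, and neighbouring peaks are not independent of each other.

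Promoter sequences are shown for 3 kinds of member: the 2 MDM-listed members at a gene start, the 3 YSM-listed members of 5 subpeaks closest to a start, and 3 bidirectional pairs among those with the most subpeaks. They run 5′ to 3′ along the gene's strand, with 250 bases before the annotated start and 50 from it on (RefSeq, GRCm38.p6). Capitals mark matches on either strand to the GC box GGGCGG, the CCAAT box CCAAT, the TATA box TATAAA, the ETS core CCGGAAG and the PU.1 motif GAGGAAGT. The AP-1 motif TGANTCA, the cAMP response element TGACGTCA and the motif of NRF1 were searched as well and are in none of these 8 windows. The windows are Ifi47 at chr11:49076337-49076636 (+), Myof at chr19:38043528-38043827 (-), Ryk at chr9:102834670-102834969 (+), Thrsp at chr7:97417501-97417800 (-), Plekhh2 at chr17:84511645-84511944 (+), Srek1ip1 of the pair with Cwc27 at chr13:104816920-104817219 (+), Cct3 of the pair with Tsacc at chr3:88296885-88297184 (+) and Krit1 of the pair with Ankib1 at chr5:3802915-3803214 (+).
Ifi47: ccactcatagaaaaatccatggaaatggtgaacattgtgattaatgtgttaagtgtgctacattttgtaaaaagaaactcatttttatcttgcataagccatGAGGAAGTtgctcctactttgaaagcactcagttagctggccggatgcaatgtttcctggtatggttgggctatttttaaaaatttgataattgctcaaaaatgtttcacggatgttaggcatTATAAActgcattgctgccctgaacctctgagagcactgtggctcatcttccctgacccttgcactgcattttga
Myof: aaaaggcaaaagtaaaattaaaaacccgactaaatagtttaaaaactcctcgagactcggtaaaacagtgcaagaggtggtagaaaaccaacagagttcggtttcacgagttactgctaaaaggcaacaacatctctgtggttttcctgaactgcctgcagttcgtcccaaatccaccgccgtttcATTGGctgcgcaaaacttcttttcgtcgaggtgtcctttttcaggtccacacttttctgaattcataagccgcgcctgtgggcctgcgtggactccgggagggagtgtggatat
Ryk: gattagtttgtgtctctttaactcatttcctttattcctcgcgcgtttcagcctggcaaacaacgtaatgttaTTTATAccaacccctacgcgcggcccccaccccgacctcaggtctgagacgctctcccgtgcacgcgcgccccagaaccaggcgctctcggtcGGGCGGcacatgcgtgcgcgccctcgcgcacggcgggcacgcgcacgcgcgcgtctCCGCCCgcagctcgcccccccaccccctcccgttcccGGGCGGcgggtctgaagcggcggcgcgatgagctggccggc
Thrsp: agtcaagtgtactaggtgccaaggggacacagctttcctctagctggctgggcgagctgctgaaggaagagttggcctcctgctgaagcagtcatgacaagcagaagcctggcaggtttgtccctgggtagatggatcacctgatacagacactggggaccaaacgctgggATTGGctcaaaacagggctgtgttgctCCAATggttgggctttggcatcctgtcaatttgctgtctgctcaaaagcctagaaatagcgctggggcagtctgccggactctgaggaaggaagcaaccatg
Plekhh2: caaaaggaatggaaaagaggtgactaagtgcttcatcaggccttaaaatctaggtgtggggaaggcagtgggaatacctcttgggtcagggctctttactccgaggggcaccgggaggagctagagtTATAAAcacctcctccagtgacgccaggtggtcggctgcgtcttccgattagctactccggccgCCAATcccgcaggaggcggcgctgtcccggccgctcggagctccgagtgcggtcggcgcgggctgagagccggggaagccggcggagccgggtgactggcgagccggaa
Srek1ip1: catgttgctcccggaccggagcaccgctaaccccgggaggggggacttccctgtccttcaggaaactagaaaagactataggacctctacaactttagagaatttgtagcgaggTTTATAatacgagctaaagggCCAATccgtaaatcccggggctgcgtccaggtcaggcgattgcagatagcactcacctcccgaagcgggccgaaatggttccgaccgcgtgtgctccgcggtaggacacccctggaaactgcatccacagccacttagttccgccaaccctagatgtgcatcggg
Cct3: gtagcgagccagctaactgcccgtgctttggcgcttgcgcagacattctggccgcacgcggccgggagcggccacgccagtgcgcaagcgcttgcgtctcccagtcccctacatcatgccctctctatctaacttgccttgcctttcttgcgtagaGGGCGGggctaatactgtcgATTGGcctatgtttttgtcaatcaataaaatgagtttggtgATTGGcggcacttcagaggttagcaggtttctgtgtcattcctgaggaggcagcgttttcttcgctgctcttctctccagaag
Krit1: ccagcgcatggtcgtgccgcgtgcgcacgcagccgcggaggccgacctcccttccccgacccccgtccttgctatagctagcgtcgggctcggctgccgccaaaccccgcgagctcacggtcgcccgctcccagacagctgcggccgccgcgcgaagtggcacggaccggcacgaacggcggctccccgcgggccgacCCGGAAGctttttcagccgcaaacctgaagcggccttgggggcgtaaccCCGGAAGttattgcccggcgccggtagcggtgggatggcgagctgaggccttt
The window of Ifi47, with 2 CpG dinucleotides, holds a TATAAA match 25 bases before the start. Its PU.1 match begins 148 bases before the start. Myof has 15 CpG and a single match, to CCAAT on the other strand. The window of Ryk, with 42 CpG, holds 3 GC boxes, while Thrsp has 4 CpG and 2 CCAAT boxes. Krit1, with 43 CpG, holds 2 ETS cores, both of which also lie in the promoter window of Ankib1. A match is a run of letters and was not read as a bound site.

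Members lay close to gene starts and were sparse around gene ends. The median distance from a member's centre to the nearest gene edge was 163 bp, with quartiles at 77 and 449 bp. Strand was known for 16456 of 20661 genes, and 11209 members lay at a start by that strand. It was known for 0 of the 510 genes on chromosome 18. All results by start, end, pair or promoter window therefore leave that chromosome out. At these starts there were 12320 combinations of a peak and a gene, with a median position 59 bp downstream of the start and quartiles 98 bp upstream and 238 bp downstream. Of them, 60.4% lay within 200 bp of the start. The fullest bin of 100 bp, from the start to 100 bp downstream, held 2447 combinations, while the bins at either limit held 101 upstream and 230 downstream. Downstream positions were the more frequent beyond 200 bp, so that the profile leaned into the gene. The distance limit fell in a flat stretch of the distribution, with 522 members at 901 to 1000 bp and 490 peaks just outside, at 1001 to 1100 bp. These had a median width of 227.5 bp inside and 234 bp outside, and 49.2% inside and 53.3% outside had at least 4 subpeaks. The band inside held 1 MDM-listed and 5 YSM-listed peaks, and the band outside 0 and 7.

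**Figure D1:**
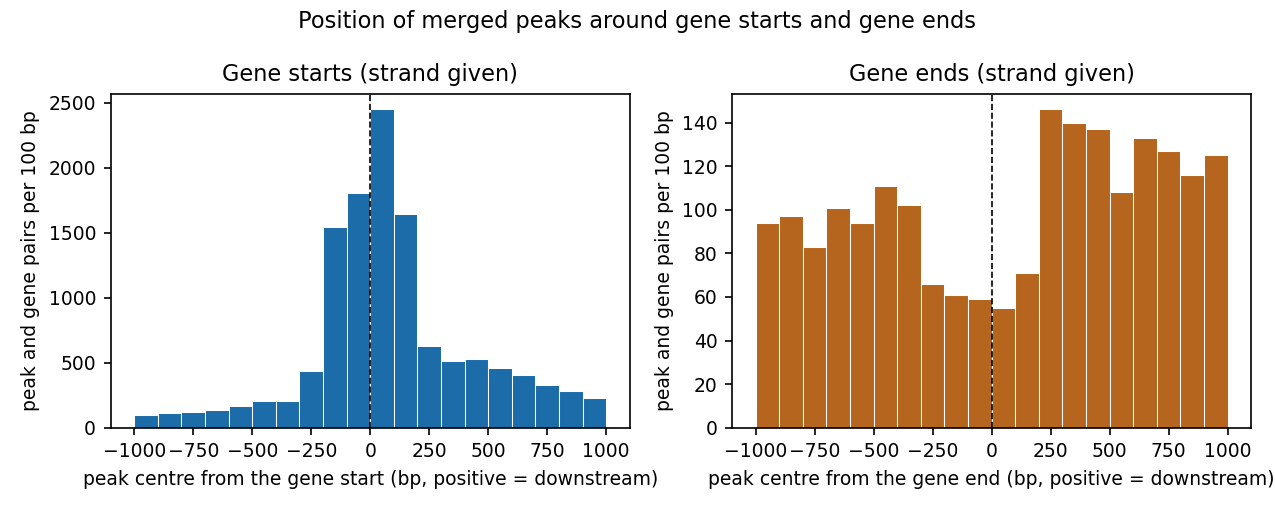
Number of peak and gene combinations per 100 bp (vertical axis) against the distance of the peak centre from the gene start (left) or gene end (right) in bp, with positive values downstream, for genes whose strand is given. The start profile peaks at 2447 just downstream of the start, and the end profile has a trough around the end, at 62.4 per 100 bp.

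At gene ends the profile had a trough in place of a summit. There were 2026 combinations of a peak and a gene end, at 1737 genes, and 12.2% of them lay within 200 bp of the end. Combinations numbered 62.4 per 100 bp from 300 bp before to 200 bp after the end, against 97.4 per 100 bp farther inside the gene and 129 per 100 bp farther beyond it. The 1282 members at an end and at no start were split into 681 beyond the end and 601 before it. Of these, 80 lay at the ends of 2 or more genes, as happens where genes converge. A further 536 members lay at the start of 1 gene and the end of another or of the same gene, and are counted among the start members. Annotated non-coding genes had an edge near 60 of the end-only members, or 4.68%, against 7.08% of the other peaks.

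Members had more subpeaks than the other peaks and were slightly narrower at the median. At least 4 subpeaks were found in 73.9% of members (73.2 to 74.6%) and in 53.4% of other peaks (53.0 to 53.8%). A single subpeak was found in 12.3% of members and in 22.4% of other peaks. The mean was 3.73 subpeaks in members and 3.14 in other peaks. The higher share was found at gene starts. Members at a start had at least 4 subpeaks in 77.2% of cases (76.4 to 78.0%). Members at an end only did so in 53.3% (50.5 to 56.0%), and peaks inside and outside genes in 52.8% and 54.3%, so the interval of the end-only members includes both of those shares. Members whose gene strand is not given, 3100 in all, had at least 4 subpeaks in 70.4%.

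**Figure D2:**
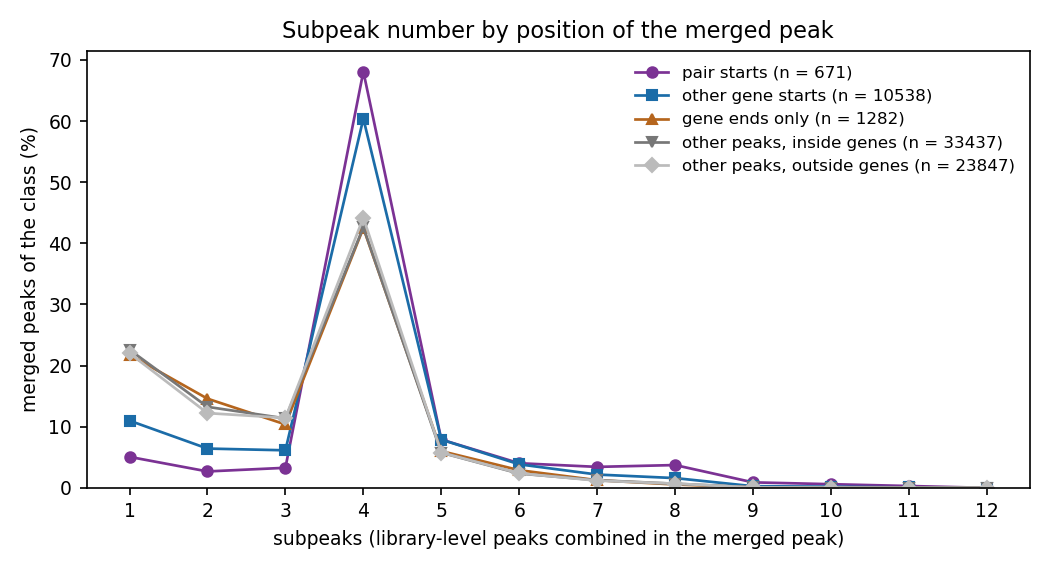
Share of merged peaks in each class (vertical axis, %) by number of subpeaks (horizontal axis), for peaks at starts of bidirectional pairs, at other gene starts, at gene ends only, and for other peaks inside and outside genes. All classes peak at 4 subpeaks, the pair starts at 68.1% and the end-only members at 42.5%, and single-subpeak peaks run from 5.07% at pair starts to 22.6% inside genes.

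The median width was 231 bp in members, with quartiles of 208 and 290 bp, and 237 bp in other peaks, with quartiles of 204 and 298 bp. Since width depends on the number of calls, the peaks of exactly 4 subpeaks were compared. There, the width beyond a single call gives the scatter between the outermost calls, although the 4 calls need not come from 4 libraries. This scatter had a median of 28 bp in 9086 members (quartiles 11 and 60 bp) and of 47 bp in 24792 other peaks (quartiles 22 and 95 bp). It was 21 bp at pair starts, 26 bp at other starts and 44 bp at ends only, against 47 bp both inside and outside genes. Calls thus fell most closely together at gene starts, and those at gene ends were scattered about as much as elsewhere. No sample error can be given for these medians.

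Of the 20661 protein-coding genes on chromosomes 1 to 19, 12058 (58.4%) had a member at an edge. Among genes with strand, 9183 (55.8%) had one at the start and 1737 (10.6%) at the end, and 1273 had both. At the start, 2577 genes had at least 2 members and 486 at least 3, up to 5. A member reached the edges of 2 or more genes in 2140 cases. The most members at the edges of 1 gene were 6, at Fhdc1, Luc7l2, Slc4a7 and Zcwpw1. Fhdc1, which codes for a formin homology protein, had 5 at its start and 1 at its end, each of at most 3 subpeaks. Luc7l2 codes for a component of the splicing machinery, and Slc4a7 for a sodium bicarbonate transporter. Their 6 members each had 1 to 4 and 1 to 5 subpeaks. Akt1s1, which codes for a subunit of mTORC1, had 5 members of 2 to 4 subpeaks.

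Nearly all bidirectional gene pairs had a member within 1000 bp of both starts. The strands given define 567 pairs of genes that point away from each other with starts at most 1000 bp apart, made up of 1127 genes, with a median gap of 101 bp (quartiles 48 and 234.5 bp). In 536 pairs (94.5%, 92.3 to 96.3%) at least 1 peak had its centre within 1000 bp of both starts, and in 532 it had at least 4 subpeaks. Counted by gene, 1067 of 1127 pair genes (94.7%, 93.2 to 95.9%) had a member at their start. Among genes in no pair, 8116 of 15329 did (52.9%, 52.2 to 53.7%). Partners mostly share a peak, so pair genes are not independent counts. With gaps this short, a peak near 1 start is mostly within reach of the other by the rule itself. A pair gene can thus be counted through a peak of its partner. How much this adds to the share of pair genes was not tested.

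A single peak served 408 pairs, 2 peaks 113 pairs and 3 or more 15 pairs. Pairs with a gap of up to 50 bp had a shared peak in 97.3% of cases, and those with a gap of 501 to 1000 bp in 81.0%. The stretch within 1000 bp of both starts shrinks as the gap grows, and its part in this fall was not tested. Among the widest gaps 45.2% had 2 or more peaks, against 18.8% among the narrowest. These peaks were within reach of both starts and need not lie between them; a peak was centred between the starts in 214 pairs. The most were 4, within 1000 bp of the starts of both Rbmxl1 and Slc10a7, which lie 395 bp apart.

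The 671 pair members were the class with the most calls per peak. At least 4 subpeaks were found in 89.0% (86.4 to 91.2%), against 76.4% (75.6 to 77.3%) of the 10538 members at other starts. At least 7 were found in 8.94% of pair members and in 4.30% of those at other starts. Their median width was nevertheless 228 bp, against 231 bp at other starts. None of the 671 was in the MDM or the YSM list, which allows a share of up to 0.447% in either by a limit of 3 counts, and of up to 0.548% by the exact interval. At other starts 2 of 10538 were MDM-listed and 81 (0.769%) YSM-listed.

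The pairs with the most subpeaks in 1 peak had 9 to 11. Cwc27, a cyclophilin of the spliceosome, and Srek1ip1, which codes for a protein that binds a splicing regulator, start 60 bp apart under a peak of 11 subpeaks and 560 bp, chr13:104816798-104817357. Atp6v1d, a subunit of the proton pump of lysosomes, and Eif2s1, the alpha subunit of translation initiation factor eIF2, start 64 bp apart under a peak of 11 subpeaks and 455 bp. Tsacc and Cct3, a subunit of the chaperonin that folds actin and tubulin, had 10 subpeaks over 498 bp. The first and the last of these peaks covered both starts, and the other covered the start of Atp6v1d alone.

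Of the other pairs at the top, Lyzl4 and Vipr1, Nhlrc3 and Proser1, and Zfp672 and Sh3bp5l had 10 subpeaks. The pairs of Ndufaf3, an assembly factor of respiratory complex I, with Dalrd3, of Tmem69 with Gpbp1l1 and of Ankib1 with Krit1 had 9. The start of Rad17, a loader of the DNA damage checkpoint clamp, lies opposite that of both Ak6 and Taf9. A peak of 9 subpeaks covered the start that Ak6 and Taf9 have in common, and ended just short of that of Rad17. The 31 pairs without a shared peak included Duox2 and Duoxa2, which code for an oxidase and its maturation factor, and the replication-dependent histone genes H2ac24 and H4bc24. They were picked out here after their values were seen.

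The widest members were mostly peaks of many subpeaks at a single gene. The widest, of 1116 bp and 11 subpeaks, lay at an edge of Abcg4, a sterol transporter (chr9:44287304-44288419). Npnt, which codes for the matrix protein nephronectin, had 1080 bp and 11 subpeaks at its start. Mtss2 had 1017 bp and 8 subpeaks, in a peak that also lies at the end of Vac14. The other 7 of the 10 widest measured 846 to 951 bp, at Syce2, Adar, Ocln, Cyp4v3, Csf2rb2, the Zwilch and Rpl4 peak, and Cand2. Of these, Adar codes for an RNA-editing enzyme and Csf2rb2 for a receptor subunit of interleukin 3. By subpeaks, the peak of Hnrnpul2 and Ttc9c (824 bp) and that of Mmp28 and 1700020L24Rik (734 bp) led with 12. Itm2b, Ywhag, Stpg1 with Nipal3, and Arsb had 11, like Abcg4, Npnt, Cand2 and the Cwc27 and Srek1ip1 peak. None of the widest was in either list.

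Genes with a member at the start had promoters rich in CpG. The comparison used the 12678 genes whose annotated start lay within 100 bp of the gene edge, with the same window of 300 bases as in the sequences above. The median was 21 CpG in 7208 windows with a member, against 3 CpG in 5470 windows without one, and the GC content was 61% with and 47.3% without. Pair genes with a member had a median of 24 CpG, and other genes with a member 21. Where the best member at the start had 1 to 3 subpeaks the median was 15 CpG, and where it had 4, or 5 and more, it was 21. By CpG number, a member was present at 8.60% of windows with 0 to 3 CpG, at 29.6% with 4 to 7, and at 87.0% with 16 to 19. In the bins from 20 to 59 CpG the share lay between 88.0 and 93.9%.

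**Figure D3:**
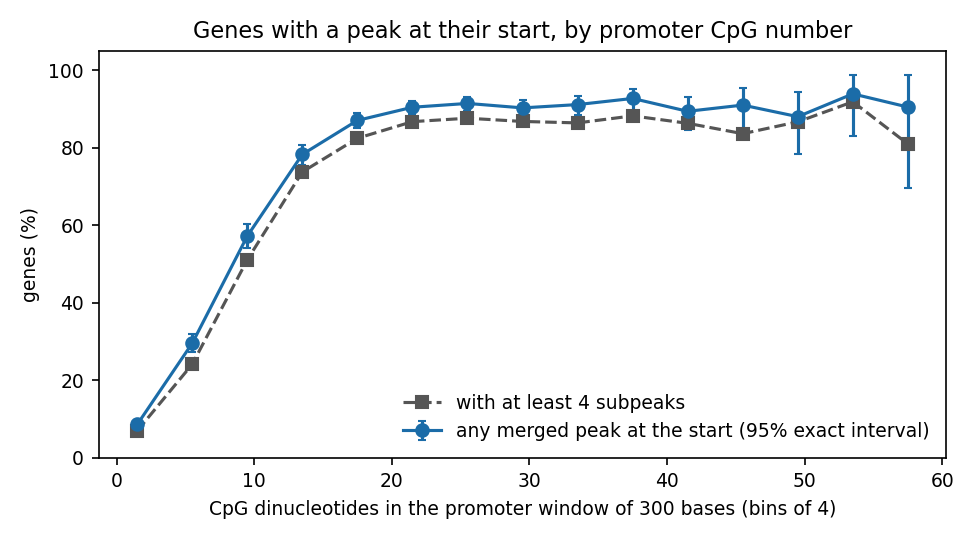
Share of genes with a merged peak at their start (vertical axis, %) by the number of CpG dinucleotides in the promoter window of 300 bases (horizontal axis, bins of 4). Circles are any peak with exact 95% intervals and squares are genes whose best peak has at least 4 subpeaks. The share climbs steeply to 87.0% at 16 to 19 CpG and then levels off.

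Windows with and without a member also differed in the short motifs they held. The GC box, bound by Sp1-type factors, was in 66.5% of windows with a member, 18.0% without and 45.6% of all. The ETS core was in 19.9% with a member, 2.56% without and 12.4% of all, and in 30.6% of pair genes with a member. Both motifs are themselves rich in G and C, and the part of base composition in these shares was not tested.

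TATAAA ran the other way, at 7.16% of windows with a member, 25.7% without and 15.2% of all. The AP-1 motif did likewise, at 4.52%, 11.2% and 7.41%. The CCAAT box was about as frequent with a member (40.7%) as without (40.6%), and in 40.7% of all. The PU.1 motif, read by the lineage factor of macrophages, was in 3.30% with, 3.55% without and 3.41% of all. The cAMP response element was in 3.84%, 0.841% and 2.55%, and the NRF1 motif in 2.47%, 0.238% and 1.51%. All of these motifs were searched on both strands. Windows with and without a member differ in GC content (61% and 47.3%), and the part of base composition in these shares was likewise not tested.

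Genes that every cell uses, and most lists of macrophage genes, mostly had a member. Markers of neurons and of other blood cells, and genes restricted to other tissues, mostly had none. The monocyte list and the list of glia and vessel markers lay close to the share of all genes. Against 58.4% of all protein-coding genes, a member lay at 28 of 28 genes of DNA replication and repair, 29 of 30 ribosomal protein genes, 28 of 29 proteasome genes and 22 of 24 genes of the respiratory chain. Rpl4, a protein of the large ribosomal subunit, had a peak of 10 subpeaks at its start, and Psma3, a proteasome subunit, one of 10 subpeaks and 813 bp. Rps2, Psma6, Cox5a and Cox7a2 had none by these gene edges. At least 4 subpeaks were reached at all 28 replication and repair genes, of which Xrcc6 had its best peak, of 5 subpeaks, beyond the end of the gene.

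Of the macrophage lists, 15 of 17 pan-macrophage genes, 32 of 34 macrophage transcription factors, 15 of 15 antigen presentation genes and 15 of 16 interferon response genes had a member. Ptprc (CD45) had 7 subpeaks at its start and Trem2, a lipid receptor of microglia, 5, while Csf1r and Aif1 had no member. Tap1, the peptide transporter, and Psmb9, an immunoproteasome subunit, shared a peak of 8 subpeaks and 272 bp, and Psmb8 had 8 subpeaks over 434 bp. Cd74, the invariant chain, had the fewest of its list, 3. Among the factors Egr1 led with 7 subpeaks and Mitf with 6, and Mef2a and Mef2c had no member. Gbp2, an interferon-induced GTPase, had 6, and Isg15 had no member.

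Microglial identity genes had a member in 13 of 17 cases (76.5%, 50.1 to 93.2%). Monocyte and monocyte-derived macrophage genes did in 11 of 18 (61.1%, 35.7 to 82.7%), close to the 58.4% of all genes. The intervals of both lists include that share. Olfml3 reached 8 subpeaks, Cx3cr1, a receptor counted among the pan-macrophage genes, 4, and P2ry12 3, while Adgrg1, P2ry13, Selplg and Slc2a5 had no member. Of the monocyte genes S100a6 reached 7 subpeaks and Fn1 5. Those with no member within 1000 bp of their edges included Ms4a3 itself, Ccr2, Ly6c2, Chil3, Plac8 and Vcan. These are presence calls over the 4 merged libraries and give no level.

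Markers of other cells differed by list. Glia and vessel markers had a member in 10 of 17 cases (58.8%), close to the 58.4% of all genes. Neuron markers did in 4 of 13 cases, markers of lymphocytes, neutrophils and erythroid cells in 3 of 19, and genes restricted to other tissues in 3 of 23. Of the defining markers, 7 of 9 for brain macrophages and 5 of 5 for microglia had a member. None of 4 T and B lymphocyte markers and none of 4 neutrophil markers did. Of the defining markers of neurons, glia and vessels, those with a member were Map2, Slc1a2, Aldh1l1, Mbp, Mog, Pecam1 and Flt1. Tubb3, a neuronal tubulin, had 5 subpeaks at its start, and Aldh1l1, an astrocyte enzyme, had 6. Whether peaks at markers of other cells came from such cells in the sort was not tested, and an open start does not show that a gene was transcribed.

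**Figure D4:**
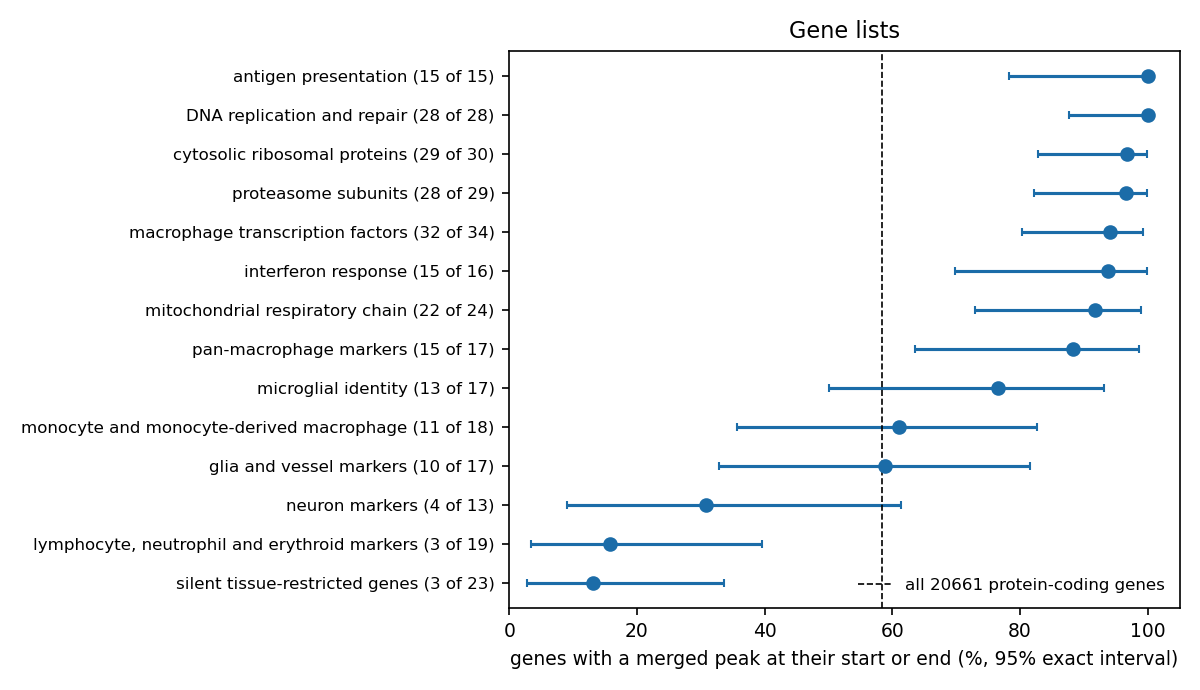
Share of the genes of each list with a merged peak at their start or end (horizontal axis, %), with exact 95% intervals and the counts beside each list, and the share of all 20661 protein-coding genes as a dashed line at 58.4%. Lists of genes used in every cell and of antigen presentation lie at 91.7 to 100%, and lists of neuron, blood cell and other tissue genes at no more than 30.8%. Glia and vessel markers, at 58.8%, and monocyte genes, at 61.1%, lie close to the dashed line.

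Few members were in the authors' lists of differential peaks, whose names tie them to the MDM or the YSM group and which carry no fold or p-value. The list's name alone was used to read a listed peak as the more accessible in that group. Of all merged peaks on chromosomes 1 to 19, 0.148% were in the MDM list and 1.50% in the YSM list. Among members 5 of 15591 (0.0321%, 0.0104 to 0.0748%) were MDM-listed, against 103 (0.180%) of other peaks. Among members 120 (0.770%, 0.639 to 0.920%) were YSM-listed, against 974 (1.70%) of other peaks. Both shares were thus below the background. Members at an end only were YSM-listed in 16 of 1282 cases (1.25%, 0.715 to 2.02%). That interval includes both the 1.70% of other peaks and the 0.723% of members at a start, so it separates them from neither.

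The 5 MDM-listed members were each at a different gene and had 4 or 5 subpeaks. Ifi47, an interferon-inducible GTPase, had its listed peak 112 bp upstream of its start (chr11:49076285-49076665, 381 bp, 5 subpeaks), over the whole promoter window printed above. Myof, a ferlin of membrane repair, had one of 415 bp and 4 subpeaks centred 49 bp upstream of its start (chr19:38043419-38043833). Both were the only members at their genes.

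At Klf2, a zinc finger transcription factor known from endothelial and myeloid cells, the listed peak lay 970 bp beyond the end (chr8:72322513-72322735, 223 bp, 4 subpeaks). The peak at the start of Klf2, of 402 bp and 5 subpeaks, was in neither list. A listed peak of 396 bp and 5 subpeaks lay 58 bp from an edge of Slc25a26, the mitochondrial carrier of S-adenosylmethionine, whose strand is not given, and at the end of Lrig1 (chr6:94604520-94604915). The last, of 410 bp and 5 subpeaks, lay 838 bp from an edge of Ttc39c, whose strand is also not given. The median width of the 5 was 396 bp, and Klf2 alone was below 381 bp.

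The 120 YSM-listed members had fewer calls. The median was 3 subpeaks and 246.5 bp (201 to 760 bp), and 72 of the 120 (60%) had at most 3 subpeaks, against 713 (73.2%) of the 974 YSM-listed other peaks. By number, 15 had 1 subpeak, 37 had 2, 20 had 3, 32 had 4 and 16 had 5 or more. The YSM-listed share of members was 0.785% at 1 subpeak, 3.30% at 2, 1.92% at 3, 0.352% at 4 and 0.658% at 5 or more. In other peaks it was 0.476%, 6.47%, 2.71%, 0.859% and 0.825% in the same order. In both it was highest at 2 subpeaks. No MDM-listed member had fewer than 4, but there were only 5 of them. Of the 103 MDM-listed other peaks, 13 (12.6%) had at most 3. The subpeak number does not tell which libraries gave the calls.

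**Figure D5:**
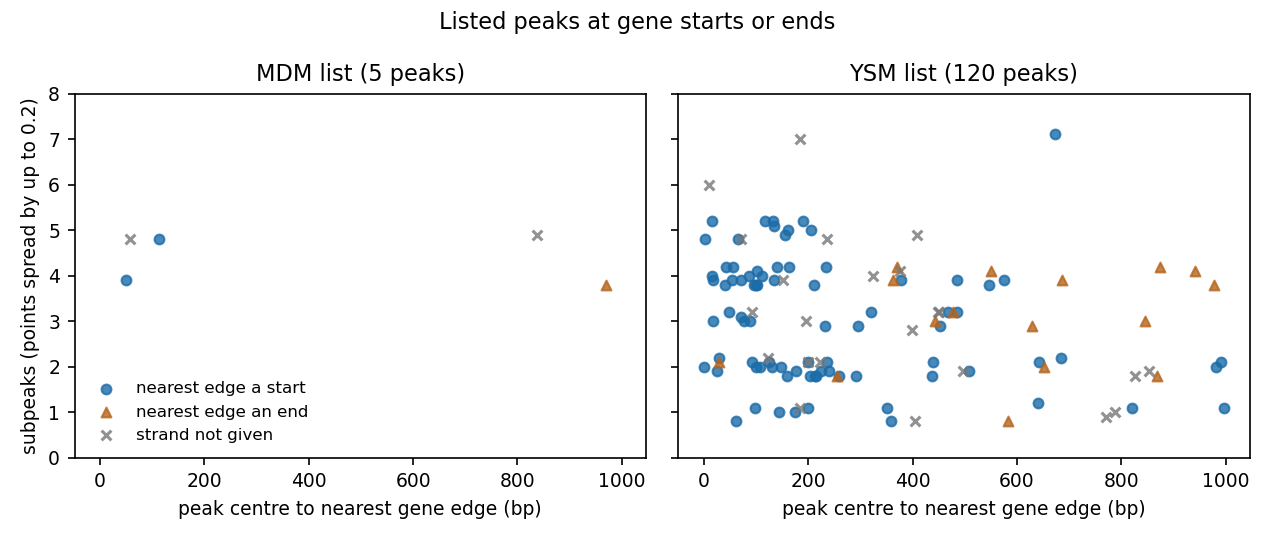
Number of subpeaks (vertical axis, points spread by up to 0.2) against the distance of the peak centre from the nearest gene edge in bp (horizontal axis), for the 5 MDM-listed members (left) and the 120 YSM-listed members (right), marked by the kind of nearest edge. The MDM-listed points lie at 4 and 5 subpeaks, and the YSM-listed points run from 1 to 7 with most at 2 to 4.

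By position, 81 YSM-listed members were at a start, 16 at an end only and 23 at genes without strand. The most subpeaks, 7, were at Meis1, a homeobox factor, with a peak of 495 bp centred 672 bp downstream of its start (chr11:19018732-19019226), and at Zfp960. The peak at Sgce and Peg10, neighbouring imprinted genes, had 6 (chr6:4746987-4747439, 453 bp), and was the only member at Sgce. These 3 were the YSM-listed members with more than 5 subpeaks.

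Of those with 5, Ryk, a Wnt receptor, had the widest YSM-listed peak, 760 bp centred 2 bp from its start. Thrsp, a regulator of lipid synthesis, had 378 bp centred 16 bp upstream, and Plekhh2 393 bp centred 65 bp upstream. Peaks of 5 subpeaks upstream of the start lay at Kcnn3, a calcium-activated potassium channel, Cdc42bpa, a kinase of the cytoskeleton, Wwtr1, the Hippo pathway coactivator TAZ, Efnb2, an ephrin ligand, and Yes1, a Src family kinase. Their centres were 117 to 206 bp upstream. At Fmn1 and Zfp2 they lay 133 and 189 bp downstream. Ikzf2, Atp8b1 and Csmd3, whose strand is not given, also had 5. With 4 subpeaks and closest to a start were Ephb3, a receptor of ephrins, Tppp, St3gal5, which makes the ganglioside GM3, and Fam13a, within 43 bp.

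YSM-listed members lay nearest to 102 genes. At 86 of them 1 was listed, at 14 genes 2, and at Jam2 and Prickle1 3. The 3 members of Prickle1, a protein of planar cell polarity, spanned chr15:93595345-93596593 around its start and had 1 to 3 subpeaks. Those of Jam2, a junctional adhesion molecule, had 3, 1 and 1 subpeaks. In both genes every member was listed. That also held at the 14 genes with 2 listed members, except Psat1 and Scube1. It held, for example, at Prox1, a homeobox factor, Nova1, a splicing factor, and Myo6, an unconventional myosin.

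Of the genes in the lists, Sall1 and Sall3, zinc finger factors of which Sall1 is known for its role in microglial identity, had 2 YSM-listed members each. At Sall1 they lay 684 and 358 bp downstream of the start, with 2 and 1 subpeaks (chr8:89043320-89043637 and chr8:89043704-89043904). Sparc, a matrix-binding glycoprotein, had 1 of its 3 members listed, 225 bp downstream of the start and with 2 subpeaks. A listed peak of 4 subpeaks lay beyond the end of Golm1, a protein of the Golgi membrane, and 370 bp inside the end of the converging gene Naa35. These 6 were all the YSM-listed members among the microglial identity genes, and the list of these genes was drawn up with earlier results of these data known. P2ry12, Tmem119 and Siglech had members that were in neither list.

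Against 120 of 15591 members over all chromosomes, 16 of the 532 on chromosome 14 were YSM-listed, the largest count of any chromosome. Of these, 8 lay between 4334418 and 19585457, with a median of 2 subpeaks. The stretch was drawn after the values were seen, from the first to the last of these 8 peaks. Its 53 members therefore give no share to set beside that of other members. The 8 peaks lay at Gm3239, Gm3248, Gm33933, Gm3636, Gm38418, Gm2237 and 2610042L04Rik. These predicted genes are part of arrays of similar copies, so that reads may not be placed uniquely. How the authors treated such reads is not given in the sources used here, and any part of read placement in these calls was not tested. Among the 16 YSM-listed members at an end only, picked out after their values were seen, were 2 beyond the end of Psat1, an enzyme of serine synthesis (373 bp with 4 subpeaks and 241 bp with 2), and 1 beyond the end of Sgk1, a glucocorticoid-induced kinase (413 bp, 3 subpeaks).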

How the data were processed

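ATAC-seq was done by the authors in 4 libraries of brain parenchymal macrophages, with Trimmomatic 0.39, Bowtie2 2.2.5, Picard and HOMER (build mm10), per the submitters' processing notes. Peaks had been called per library and merged by the authors with HOMER mergePeaks, per the file headers. Not given in the sources used here are the caller's settings, any shift of reads for the transposase and the thresholds behind the MDM and YSM lists. The deposited files hold intervals, a peak name whose last number is the subpeak number, and a score column in the MDM and YSM lists that carries no readable measure and was not used. Depth per library is not known from these files, so no interval or floor per library is given.

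Subpeak numbers were checked on the coordinates: all 15127 intervals of a single subpeak were 201 bp wide, and 0 were wider than their calls laid end to end. Coordinates were converted to 1-based. Genes were placed with the RefSeq table of GRCm38.p6, the assembly behind mm10. Strand was read from its promoter table, which matched 16456 of 20661 genes and 0 of the 510 on chromosome 18. A gene start or end is the outermost annotated coordinate, so starts inside a gene are not counted. A listed peak was matched to a merged peak by identical coordinates. The class assignment was tested on simulated intervals. Python 3.11.15, pandas 2.3.3 and SciPy 1.17.1 were used.

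No test across samples was made, since no value per library was used. Most genes were named by rule: every MDM-listed member, YSM-listed members at listed genes or pairs and the 20 with the most subpeaks, the 10 widest, the 10 with the most subpeaks, the 10 top pairs, the 5 genes with the most members, and examples of each of 14 gene lists. Others were named after their values were seen. These were Jam2, Prickle1, Prox1, Nova1, Myo6, Scube1, the genes of the chromosome 14 stretch, and Rbmxl1 with Slc10a7. Duox2 with Duoxa2, H2ac24 with H4bc24, Psat1 and Sgk1 were also named in this way. Some listed genes count in the totals but are not reported here by name. The members, lists and motifs were chosen with earlier results of these data known.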

Additional observations from a re-analysis of the deposited data

How the results depend on the processing

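Over 9 results and 40 alternative values, 27 stayed within the limits set for a change and 13 moved. These limits were unlike. Counts had a wide relative limit, which member numbers of 12178 and 19648 still met. The median width had to stay at 231 to 232 bp, and the share with at least 4 subpeaks at 73.2 to 74.6%. The tally of 27 and 13 therefore mixes unlike criteria. The number of members stayed between 12178 and 19648, that of genes with a member at the start between 8465 and 10053, and that of YSM-listed members between 95 and 174. Pairs with a shared peak numbered 502 of 525 with starts up to 500 bp apart and 540 of 628 up to 2000 bp, against 536 of 567 as reported, and 532 of 567 had one of at least 4 subpeaks. The highest number of genes, 10053, counted every start in the promoter table, a setting chosen after the data were seen. At an edge distance of 500 bp, 79.5% of members had at least 4 subpeaks, 682 lay at an end only and 3 were MDM-listed. At 2000 bp these values were 70.4%, 2301 and 8. With genes of every annotated kind, 71.0% had at least 4 subpeaks, the median width was 233 bp and 13 were MDM-listed. With peaks of at least 2 subpeaks alone, 84.2% had at least 4 and the median width was 239 bp, since the filter removes the narrowest peaks. With peaks within 200 bp merged and subpeaks summed, these were 84.0% and 248 bp.

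No paired analysis was possible because the peak lists carry no value per library, so the fit with the replicate number as a block and the leaving out of each library in turn were not run. Differences between classes of peak therefore have no sample error, a peak that missed the authors' threshold in a library is not shown to be closed there, and absence from both lists does not show equal accessibility.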
